A study of Homo sapiens with 23 samples.

Results

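Of the 57875 genes listed for each sample, 14 were all but silent in wild-type HCT116 cells and were measured in every replicate of cells that lack *AGO1*, *AGO2* and *AGO3*. The 14 genes were chosen by their counts, with 3 or fewer counts in each of the 3 wild-type samples and 20 or more counts in each of the 3 *AGO1/2/3* knockout samples, with genes on chromosome Y left out. The wild-type condition alone was met by 29062 genes, and 0 genes on chromosome Y met both conditions. Because the rule uses the wild-type and *AGO1/2/3* knockout counts themselves, those counts and the ratio between them are given below as a description without a test. The tests compare the *AGO1*, *AGO2* and *AGO1/2* knockout lines, whose counts the rule did not use. For 11 of the 14 genes, however, it was the counts in *AGO1/2/3* knockout cells that carried the gene past the filter on low counts and so into these tests. On the samples of the 3 compared lines alone, *MYBPH*, *TXLNB* and *SNORA64* passed it.

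HCT116 is a human colorectal carcinoma cell line. Total RNA depleted of ribosomal RNA was sequenced from wild-type cells (WT) and from lines with the genotypes AGO1-/- (A1_KO), AGO2-/- (A2_KO), AGO1-/- with AGO2-/- (A12_KO) and AGO1-/- with AGO2-/- and AGO3-/- (A123_KO), with 3 biological replicates of each, 15 samples in all. The lines were grown in the same medium without any treatment, and the knockouts were made by CRISPR editing from the same parental line. There was 1 line per genotype, and differences that a line acquired by itself cannot be told apart from those of its genotype.

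Argonaute (AGO) proteins carry small RNAs such as microRNAs (miRNAs) and are guided by them to complementary sites in other RNAs, most often in the 3′-UTR of an mRNA. The miRNA pairs with its target mainly through its seed, the bases near its 5′ end, and the bound AGO protein recruits factors that shorten the poly(A) tail and lower translation. A gene without detectable RNA is usually kept off at the level of transcription, by the lack of activating factors or by closed chromatin.

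Total counts were between 27709971 and 45271146 per sample. The lines that the rule used had 29140175 to 32381721 (WT) and 29274887 to 40567975 (A123_KO). *AGO1* RNA stood at 27.0%, 28.0% and 24.8% of its wild-type level in A1_KO, A12_KO and A123_KO, and *AGO3* RNA at 46.1% in A123_KO. *AGO2* RNA stood at 70.4%, 83.4% and 132.3% of its wild-type level in A2_KO, A12_KO and A123_KO, so that its RNA does not mark the lines in which the gene was edited. Among 17 epithelial and colonic markers, the lowest mean of *EPCAM* in any line was 63.6 CPM, the unit of levels here (cpm of edgeR, which scales counts to a common library size by the TMM method), and *KRT8* and *KRT18* were higher in each line, whereas *CDX1* had 0 counts in every sample. The marker levels were not kept in A123_KO. Of 13 markers tested there against wild-type cells, 7 were lower, *EPCAM* among them, and 1 was higher. Of all genes tested, 19.8% were lower and 20.3% higher. In these bulk samples a higher level in every cell and a larger share of cells with the RNA cannot be told apart.

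The 14 genes comprised 10 protein-coding genes, 2 long non-coding RNA genes (*SERTAD4-AS1* and ENSG00000259814), the processed pseudogene *RPL24P8* and the small nucleolar RNA gene *SNORA64*. Protein-coding genes made up 71.4% of them, 34.0% of all genes listed and 12.4% of the genes at the wild-type limit. They lay on 9 chromosomes, with 3 each on chromosomes 1 and 2 and 2 on chromosome 5. No pair was within 100 kb. The closest were *MYBPH* and *SERTAD4-AS1* on chromosome 1, which were 7.06 Mb apart.

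By their known expression, which was not measured here, most of the 10 coding genes are linked to tissues other than colon epithelium. *MYBPH*, *TXLNB* and *ACTBL2* encode proteins of muscle or of the actin cytoskeleton, and *KRT34* a keratin of hair. *LAPTM5*, *DOCK2* and *C3AR1* are genes of white blood cells. *GPR55*, *LYPD1* and *MARCHF4* encode membrane proteins that are best known from the nervous system and, for *GPR55*, from several other tissues.

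*MYBPH* (ENSG00000133055, GRCh38 chr1:203167811-203175826, minus strand) encodes myosin binding protein H, a protein of the thick filament of skeletal muscle. It had 3, 0 and 0 counts in the wild-type samples, 2, 2 and 2 in A1_KO, and 4, 3 and 3 in A2_KO. It had 246, 541 and 230 counts in A12_KO and 550, 417 and 389 in A123_KO. The RNA was thus at the edge of detection in wild-type cells and both single knockouts and plain in the double and the triple knockout, which overlapped each other. The mean level was 11.7 ± 6.06 CPM in A12_KO and 13.9 ± 0.717 CPM in A123_KO (SD, n = 3). The 1356 counts in A123_KO against 3 in wild-type cells gave a ratio of 448, with a 95% counting interval from 153 to 2177 (exact Clopper-Pearson limits of the share of counts, which cover counting error only, as do all intervals below). Between the lines that the rule did not use, *MYBPH* was higher in A12_KO than in A1_KO by 7.36 on the log2 scale (standard error 0.49, adjusted p = 8.68e-08) and higher than in A2_KO by 7.15 (standard error 0.45, adjusted p = 5.50e-08; edgeR's quasi-likelihood test). It kept both calls under every alternative tried. Standard errors here and below were taken as the size of the log2 difference divided by the square root of the test's F statistic. They are approximate, and the p-values come from the test itself.

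*TXLNB* (ENSG00000164440, chr6:139240061-139291998, minus strand) encodes beta-taxilin, a syntaxin-binding protein found mainly in heart and skeletal muscle. It had 1, 2 and 2 counts in the wild-type samples, 1, 2 and 1 in A1_KO, and 4, 2 and 4 in A2_KO. It had 26, 55 and 53 counts in A12_KO against 44, 26 and 35 in A123_KO. As for *MYBPH*, the double and the triple knockout overlapped and stood apart from the other lines, with 1.56 ± 0.631 CPM and 1.07 ± 0.144 CPM (SD, n = 3). *TXLNB* was higher in A12_KO than in A1_KO by 5.00 on the log2 scale (standard error 0.47, adjusted p = 2.77e-06) and than in A2_KO by 4.24 (standard error 0.39, adjusted p = 3.22e-06 from edgeR). Its ratio of A123_KO to wild type was 20.8 (interval 8.65 to 65.5). Of its transcript, 17.8% of the 31-base words also occur in the gene ENSG00000272446 on the same strand, whose own mean was at or under 0.124 CPM in each line.

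*ACTBL2* (ENSG00000169067, chr5:57480018-57482811, minus strand) is a single-exon gene for an actin similar to beta-actin. It had 0, 1 and 1 counts in the wild-type samples, 2, 6 and 2 in A1_KO, 1, 3 and 0 in A2_KO, 14, 10 and 9 in A12_KO and 31, 21 and 29 in A123_KO. Every A12_KO sample lay below the A123_KO samples and above those of both single knockouts. *ACTBL2* was higher in A12_KO than in A2_KO by 3.44 on the log2 scale (standard error 0.60, adjusted p = 0.000903 from edgeR) and than in A1_KO by 1.71 (standard error 0.52, adjusted p = 0.0303). In a fit of the 6 samples of A12_KO and A2_KO alone, *ACTBL2* passed the filter and was called (3.44, adjusted p = 0.00319). Against A1_KO it was tested through its A123_KO counts, and the call was lost with DESeq2 (adjusted p = 0.0587) and without A1_KO replicate 1 or 3 or any of the A12_KO replicates (adjusted p up to 0.120), and without A1_KO replicate 2 the value was 2.46. Without A2_KO replicate 2 the difference from A2_KO was 4.60. None of the 31-base words of *ACTBL2* occurs in a transcript of another gene, *ACTB* and *ACTG1* included.

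*KRT34* (ENSG00000131737, chr17:41377669-41382306, minus strand) encodes a type I keratin of hair and nail. It had 3, 0 and 2 counts in the wild-type samples, 0 in each A1_KO sample, 0, 8 and 1 in A2_KO, 5, 4 and 3 in A12_KO and 20, 32 and 25 in A123_KO. Its level in A12_KO was 5.23 higher than in A1_KO on the log2 scale (standard error 1.77), a difference that did not pass the threshold (adjusted p = 0.0551 from edgeR). As A1_KO had 0 counts, 5.23 does not measure a size. With 3 counts over A1_KO as the limit that 0 allows, the 12 counts in A12_KO gave at least 4.1-fold. *KRT34* entered this test through its A123_KO counts, and the p-value does not stand apart from the samples that chose the gene. Of its 31-base words, 23.4% occur in other keratin transcripts or other genes, most of them in *KRT33B*, which was at or under 0.0104 CPM in each line.

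*LAPTM5* (ENSG00000162511, chr1:30732469-30757774, minus strand) encodes a lysosomal membrane protein of blood cells that takes part in turning over antigen receptors. It had 2, 3 and 2 counts in the wild-type samples, 3, 5 and 4 in A1_KO and 2, 2 and 1 in A2_KO. It had 12, 9 and 8 counts in A12_KO and 73, 55 and 64 in A123_KO. The double knockout lay above every wild-type and single-knockout sample and well below the triple knockout, at 16.6% ± 2.41 of the A123_KO mean (SD, n = 3). It was higher in A12_KO than in A2_KO by 2.96 on the log2 scale (standard error 0.38, adjusted p = 6.38e-05 from edgeR) and than in A1_KO by 1.28 (standard error 0.33, adjusted p = 0.0328). In a fit of the 6 samples of A12_KO and A2_KO alone, *LAPTM5* passed the filter and was called (2.97, adjusted p = 0.00162). Against A1_KO it was tested through its A123_KO counts, and the call was lost with DESeq2 (adjusted p = 0.113), without the filter on low counts (adjusted p = 0.0652) and without A1_KO replicate 1 or 3 or A12_KO replicate 1 or 2 (adjusted p up to 0.144). Its ratio of A123_KO to wild type was 27.2 (interval 13.0 to 68.6).

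*DOCK2* (ENSG00000134516, chr5:169637268-170083382, plus strand) encodes an activator of the GTPase Rac that white blood cells need for migration. It had 0 counts in every wild-type and every A12_KO sample and 1 count in 1 sample each of A1_KO and A2_KO, against 43, 32 and 56 counts in A123_KO. It was the single gene of the 14 with 0 counts in all wild-type samples, and it was at least 43.3-fold higher in A123_KO, taking 3 counts over the wild-type samples as the limit that a count of 0 allows. The 0 counts in A12_KO allow a level of at most 3.18% of that in A123_KO (upper end of the 95% interval).

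*C3AR1* (ENSG00000171860, chr12:8056844-8066359, minus strand) encodes the receptor for the complement fragment C3a, found on myeloid cells. It had 1, 0 and 0 counts in the wild-type samples, 0 in all samples of both single knockouts, and 1, 1 and 0 in A12_KO. In A123_KO it had 41, 29 and 36 counts, or 1.09 ± 0.11 CPM (SD, n = 3). Both *DOCK2* and *C3AR1* thus had RNA in the triple knockout in the absence of a detectable level in the double knockout.

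*GPR55* (ENSG00000135898, chr2:230907318-230961066, minus strand) encodes a G protein-coupled receptor for lysophosphatidylinositol. It had 1, 2 and 0 counts in the wild-type samples, 1, 0 and 5 in A1_KO and 1, 2 and 1 in A2_KO. It had 12, 16 and 6 counts in A12_KO, and its levels in the A123_KO samples were 5.26, 5.57 and 4.17 CPM (488 counts in all). The double knockout lay above both single knockouts in every sample, at 7.72% ± 3.31 of the A123_KO mean of 5.00 ± 0.736 CPM (SD, n = 3). *GPR55* was higher in A12_KO than in A2_KO by 3.48 on the log2 scale (standard error 0.66, adjusted p = 0.00165 from edgeR) and than in A1_KO by 2.47 (standard error 0.63, adjusted p = 0.0114). *GPR55* entered both tests through its A123_KO counts and did not pass the filter in the fits without those samples. With no filter on low counts the adjusted p from edgeR were 5.18e-05 and 0.00231, in a fit that still held the A123_KO samples. These p-values are therefore no support apart from the samples that chose the gene. The call against A1_KO was lost without A1_KO replicate 1 (adjusted p = 0.0523) or A12_KO replicate 2 (adjusted p = 0.0575), and the difference was 4.23 without A1_KO replicate 3, which held 5 of the 6 counts of that line. The ratio of A123_KO to wild type was 161 (interval 54.9 to 785).

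*MARCHF4* (ENSG00000144583, chr2:216257865-216372483, minus strand) encodes a membrane-bound E3 ubiquitin ligase. It had 2, 0 and 1 counts in the wild-type samples, 2, 3 and 2 in A1_KO, 3, 7 and 0 in A2_KO, 2, 0 and 1 in A12_KO and 47, 54 and 62 in A123_KO. *LYPD1* (ENSG00000150551, chr2:132643286-132671579, minus strand) encodes a protein of the Ly6 family that modulates nicotinic acetylcholine receptors in the brain. It had 1 count in all over the wild-type samples, 0 in A1_KO, 3 in A2_KO and 1 in A12_KO, against 36, 24 and 24 in A123_KO. For both genes the double knockout lay within the range of the wild-type and single-knockout samples. Of the exon bases of *LYPD1*, 29.7% lie opposite exons of *GPR39*, and the strand setting of the quantification is not given in the sources used here, so that counts of the overlapping part could belong to either gene.

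The 2 long non-coding RNA genes had lower counts in the double than in the triple knockout. *SERTAD4-AS1* (ENSG00000203706, chr1:210231456-210234047, minus strand) runs opposite the start of *SERTAD4*, and 16.2% of its exon bases are shared with that gene on the other strand. Since the strand setting of the quantification is not known here, its counts could in part belong to *SERTAD4*, which had 875, 707 and 791 counts in A123_KO. It had 0, 0 and 1 counts in the wild-type samples, 1, 0 and 1 in A1_KO, 4, 0 and 0 in A2_KO, 10, 6 and 7 in A12_KO and 53, 45 and 66 in A123_KO. All A12_KO samples exceeded all samples of both single knockouts. The difference was 3.35 on the log2 scale against A1_KO (standard error 0.86, adjusted p = 0.0120) and 2.93 against A2_KO (standard error 0.74, adjusted p = 0.00986 from edgeR). *SERTAD4-AS1* entered both tests through its A123_KO counts and did not pass the filter in the fits without those samples. With no filter on low counts the adjusted p from edgeR were 0.00319 and 0.00239, in a fit that still held the A123_KO samples. Neither p-value is support apart from the samples that chose the gene. Without A1_KO replicate 2 the call against A1_KO was lost (adjusted p = 0.0524), and without A2_KO replicate 1 the difference from A2_KO was 6.11. The remaining A2_KO samples had 0 counts, so that 6.11 does not measure a size. ENSG00000259814 (chr15:29609676-29611212, minus strand) had 2, 0 and 2 counts in the wild-type samples, 2, 2 and 1 in A1_KO, 6, 3 and 2 in A2_KO, 6, 4 and 4 in A12_KO and 87, 64 and 38 in A123_KO, and passed neither test of A12_KO against a single knockout (adjusted p = 0.140 and 0.277).

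*SNORA64* (ENSG00000207405, chr16:1962973-1963106, minus strand) had a pattern of its own, with counts above 20 in A1_KO. It is an H/ACA small nucleolar RNA, a class that guides the conversion of uridine to pseudouridine in ribosomal RNA. It had 0, 0 and 3 counts in the wild-type samples, 61, 106 and 145 in A1_KO, 0, 0 and 11 in A2_KO, 75, 75 and 62 in A12_KO and 47, 39 and 36 in A123_KO. The 3 lines without *AGO1* were all above wild-type and A2_KO cells, and A1_KO had the highest mean, 3.54 ± 1.5 CPM against 1.26 ± 0.091 CPM in A123_KO (SD, n = 3). It was lower in A2_KO than in A1_KO by 5.28 on the log2 scale (standard error 0.64, adjusted p = 6.66e-05) and higher in A12_KO than in A2_KO by 4.74 (standard error 0.66, adjusted p = 0.000128 from edgeR). Without A2_KO replicate 3, which held all counts of its line, these differences were -9.87 and 9.31. They are then set against 0 counts and do not measure a size. All 134 bases of *SNORA64* lie within exons of some transcripts of its host gene *RPS2*, a ribosomal protein gene that was at 1623 CPM in wild-type, 1896 in A1_KO, 1469 in A2_KO, 1549 in A12_KO and 706.6 in A123_KO cells. A count for *SNORA64* therefore depends on how the quantification divided reads between them, and the part of this in the result was not tested.

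*RPL24P8* (ENSG00000236801, chr9:70217195-70217668, plus strand) is a processed copy of the ribosomal protein gene *RPL24* within an intron of *MAMDC2*. It had 1, 1 and 0 counts in the wild-type samples, 5, 4 and 2 in A1_KO, 6, 1 and 4 in A2_KO, 9, 6 and 2 in A12_KO and 40, 32 and 26 in A123_KO. The copy is 96.8% identical to *RPL24* over its 474 bases, and 31.8% of its 31-base words occur in *RPL24*. *RPL24* had a mean of 206.7 CPM in A123_KO and 420.4 CPM in wild-type cells, and *MAMDC2*, on the same strand, 82.8 and 1.75 CPM. Counts of the pseudogene that stem from the introns of *MAMDC2* pre-mRNA or from *RPL24* cannot be told apart from its own.

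**Figure D1:**
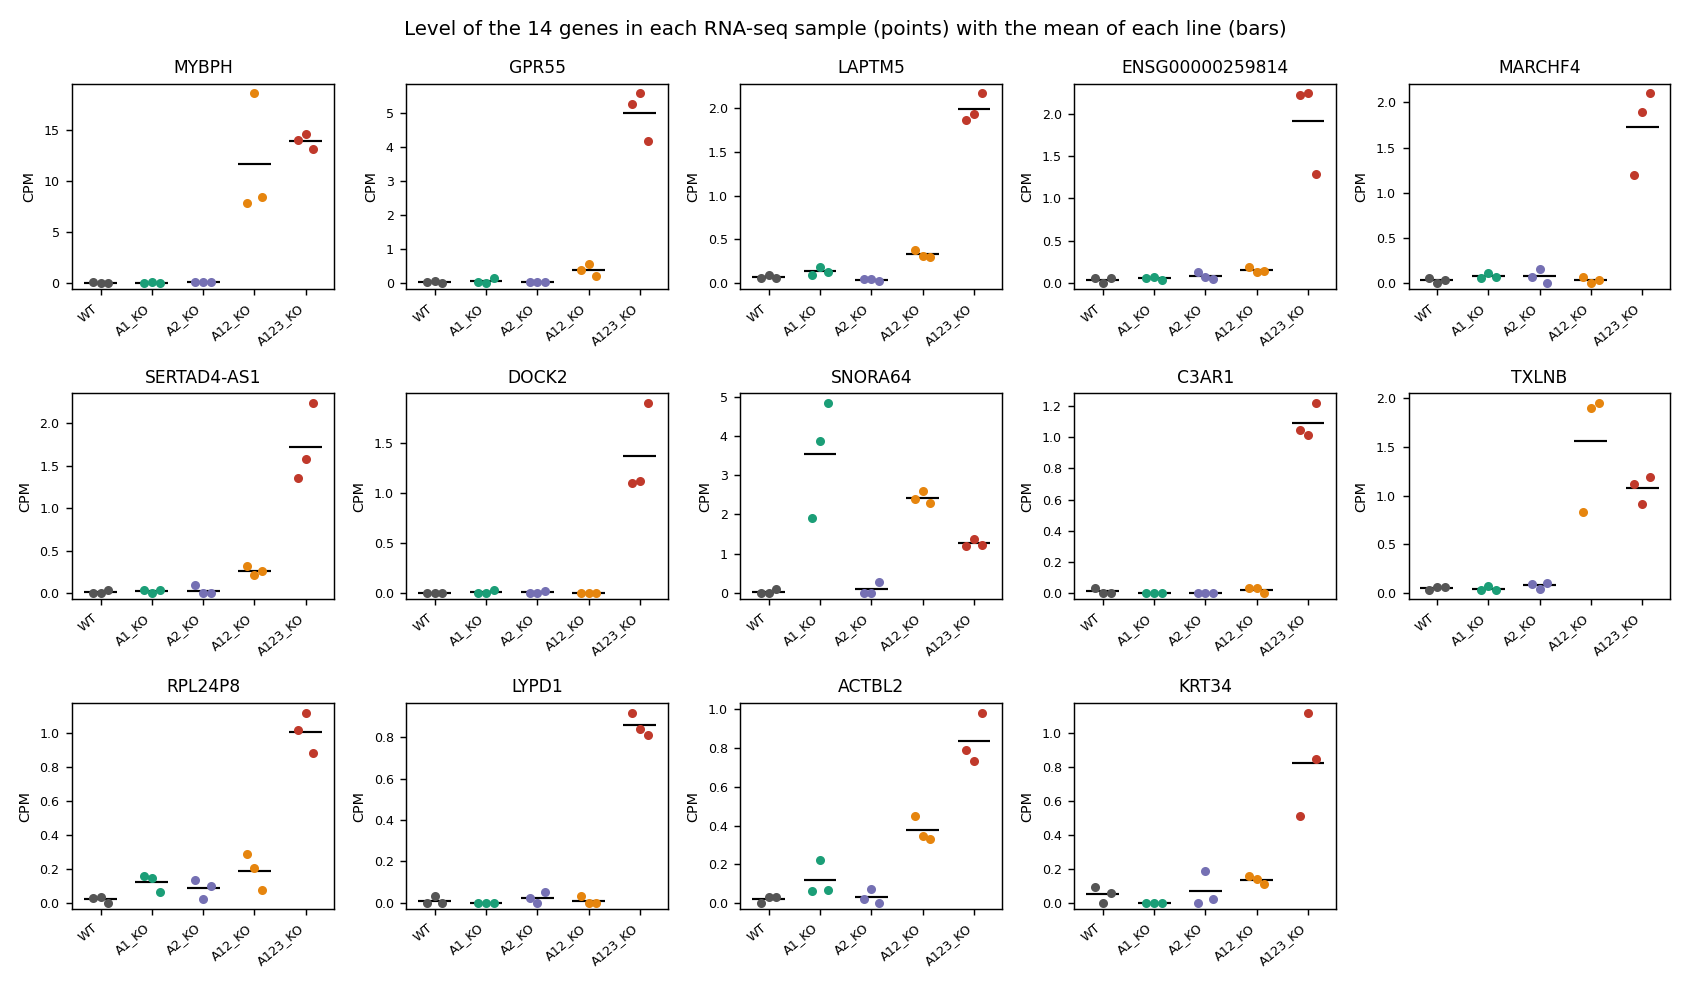
Level of each of the 14 genes in CPM (y axis, linear, own scale per gene) in wild-type cells and the 4 knockout lines, with a point per sample and a bar at the mean of each line (n = 3). MYBPH, TXLNB and SNORA64 are also raised in A12_KO, SNORA64 in A1_KO as well, and DOCK2, C3AR1, LYPD1 and MARCHF4 are at or near 0 outside A123_KO.

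Per kilobase of transcript, *SNORA64* (9.42 CPM per kb), *MYBPH* (7.67) and *SERTAD4-AS1* (4.17) had the highest levels in A123_KO, and *DOCK2* (0.226) and *TXLNB* (0.233) the lowest. These levels rank genes by the length of the transcript and not by counts, so that *SNORA64* and *SERTAD4-AS1*, with transcripts of 134 and 413 bases, move up. The genes just inside the rule were *KRT34*, *ACTBL2* and *LYPD1*, with lowest A123_KO counts of 20, 21 and 24. Just outside it, *CDK15* had 2, 1 and 0 counts in wild-type and 18, 17 and 16 in A123_KO samples, ENSG00000283517 had 0 against 17, 17 and 16, and *SNORA77B* had 3, 0 and 0 against 35, 17 and 16. The counts of these 6 genes form a continuous range across the limit of 20.

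At the median of the 14 genes, the double knockout had a part of the triple-knockout level and the single knockouts little. Single genes ran from none to more than the triple-knockout level in A12_KO, and *SNORA64* exceeded that level in A1_KO as well. Counts of 20 or more in each sample were found for 3 genes in A12_KO (*MYBPH*, *TXLNB* and *SNORA64*), 1 in A1_KO (*SNORA64*) and 0 in A2_KO. Of the 29062 genes at the wild-type limit, 0.0138% met this in A12_KO, 0.0138% in A1_KO and 0.0% in A2_KO, against 0.0482% in A123_KO, which are the 14 genes themselves. With more than 3 counts in each sample as the condition, 8 of the 14 genes met it in A12_KO. In A12_KO 4 genes (*DOCK2*, *MARCHF4*, *LYPD1* and *C3AR1*) had 3 or fewer counts in each sample, as did 9 genes in A1_KO and 6 in A2_KO. The A2_KO samples were deeper, with 40419152 to 45271146 counts beside 27709971 to 31465835 in A1_KO. These numbers of genes are therefore not compared between the lines. Expressed as a percentage of the A123_KO mean, the median gene stood at 15.8% in A12_KO (range 0 to 192%), 2.13% in A1_KO (0 to 280%) and 3.25% in A2_KO (0 to 8.56%). The A123_KO counts under these percentages are those that chose the genes, which can make the percentages too low.

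**Figure D2:**
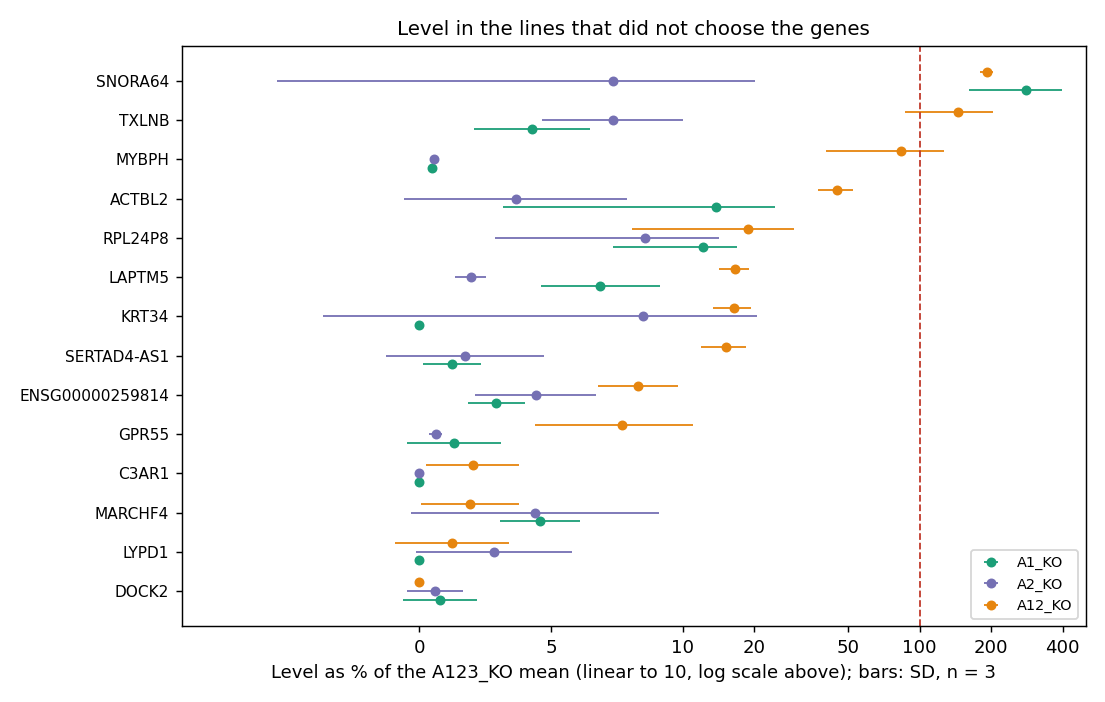
Mean level of each gene in A1_KO, A2_KO and A12_KO as a percentage of its mean in A123_KO (x axis, linear up to 10% and logarithmic above; dashed line at 100%), with bars for the SD over 3 samples; for MYBPH the A1_KO and A2_KO points lie near 0. SNORA64, TXLNB and MYBPH reach 192%, 145% and 83.7% in A12_KO, and ACTBL2 follows with 44.8%.

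When the 9 samples of the single and double knockout lines were fitted alone, *MYBPH*, *TXLNB* and *SNORA64* were the 3 of the 14 genes that passed the filter on low counts. *MYBPH* and *TXLNB* were higher in A12_KO than in A1_KO, by 7.34 and 4.98 on the log2 scale (adjusted p = 4.07e-06 and 8.38e-05 from edgeR). These 3 genes were higher in A12_KO than in A2_KO, by 7.13 (*MYBPH*), 4.22 (*TXLNB*) and 4.73 (*SNORA64*), with adjusted p of 3.55e-06, 8.93e-05 and 0.000901 from edgeR. *SNORA64* was lower in A2_KO than in A1_KO (-5.29 on the log2 scale, adjusted p = 0.000565). These calls therefore do not draw on the samples that chose the genes.

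In the fit of all 15 samples, 6 of the 14 genes were called higher in A12_KO than in A1_KO (*MYBPH*, *TXLNB*, *SERTAD4-AS1*, *GPR55*, *ACTBL2* and *LAPTM5*), where 11.5% of the 22842 genes tested were called higher and 7.95% lower. The same 6 and *SNORA64* were called higher than in A2_KO, where 12.8% were higher and 11.1% lower. A2_KO differed from A1_KO for *SNORA64*, which was lower (8.73% of the genes tested were lower and 9.67% higher). Because 11 of the 14 genes were tested through the counts that chose them, nothing is read from the number called against these shares. The comparisons also share the A12_KO samples. Without A1_KO replicate 1 or A12_KO replicate 2, 3 genes were called against A1_KO. The differences left uncalled had adjusted p between 0.0551 and 0.543 against A1_KO and between 0.153 and 0.671 against A2_KO.

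RNA from the surrounding loci was measured to describe the setting of these genes. Within 100 kb of the 14 genes, 61 further genes were tested in A123_KO against wild-type cells, of which 23 (37.7%) were higher and 12 (19.7%) lower, beside 20.3% and 19.8% of the genes tested. *SNORA64* lies in a gene-dense stretch of chromosome 16 and accounts for 18 of the 61. Without its neighbours, of which 1 was higher and 7 were lower, 22 of 43 (51.2%) were higher and 5 lower. No other locus was left out in this way, so that 51.2% is a description only. A higher neighbour was found for 13 of the 14 genes, *LAPTM5* being the exception, and the neighbour with the largest increase was raised by at least 2 on the log2 scale for 7 of them. The genes had from 1 to 18 tested neighbours each, and the same count was not made around other genes. Some neighbours also overlap a gene of the 14, where counts may belong to either gene. Nothing is therefore read from how many of the 14 had a higher neighbour, or from 37.7% beside 20.3%. The neighbours named in what follows were chosen after their values were seen.

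*SERTAD4*, a gene of the SERTA domain family that overlaps *SERTAD4-AS1* on the other strand, had 14, 1 and 9 counts in the wild-type samples, 53, 66 and 47 in A12_KO and 875, 707 and 791 in A123_KO. It was higher in A123_KO than in wild-type cells by 6.61 on the log2 scale (standard error 0.34, adjusted p = 1.92e-09 from edgeR). Where the pair overlaps, counts of *SERTAD4* and of *SERTAD4-AS1* cannot be told apart. *MAMDC2*, the host of *RPL24P8*, which encodes an extracellular matrix proteoglycan, rose by 5.56 (standard error 0.37) from 69, 24 and 77 counts to 3522, 2339 and 2257. *ENTREP2*, 38.7 kb from ENSG00000259814 and on its strand, rose by 5.28 (standard error 0.33) from 10, 12 and 13 counts to 629, 423 and 349.

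*SLC2A3*, which encodes the glucose transporter GLUT3 and lies 37.8 kb from *C3AR1*, had 294, 437 and 932 counts in the wild-type samples and 10508, 12080 and 14788 in A123_KO, a difference of 4.54 on the log2 scale (standard error 0.36, adjusted p = 1.27e-07 from edgeR). *RMEL3*, a long non-coding RNA gene whose intron holds *ACTBL2* on the other strand, rose by 4.52 (standard error 0.39). *ADORA1*, the gene of the adenosine A1 receptor, ends 406 bases from *MYBPH* on the other strand and rose by 2.93 (standard error 0.29). *GPR39*, the gene of a zinc-sensing receptor opposite *LYPD1*, rose by 2.12 (standard error 0.13). These 7 neighbours were picked for a rise of at least 2 on the log2 scale, so that their rise is a description only.

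The 13 most increased neighbours were picked for their rise in A123_KO. In A12_KO against A1_KO, 9 of them were called higher, where 11.5% of the genes tested were. Against A2_KO, 7 were called higher, where 12.8% of the genes tested were, and ENSG00000279348 near *MARCHF4* was lower (-0.46, adjusted p = 0.0212 from edgeR). The shares among other genes that rose in A123_KO were not counted, so that nothing is read from 9 and 7 of the 13. *ADORA1*, next to *MYBPH*, had a mean of 5.63 CPM in A12_KO and 10.6 CPM in A123_KO beside 1.39 CPM in wild-type cells.

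**Figure D3:**
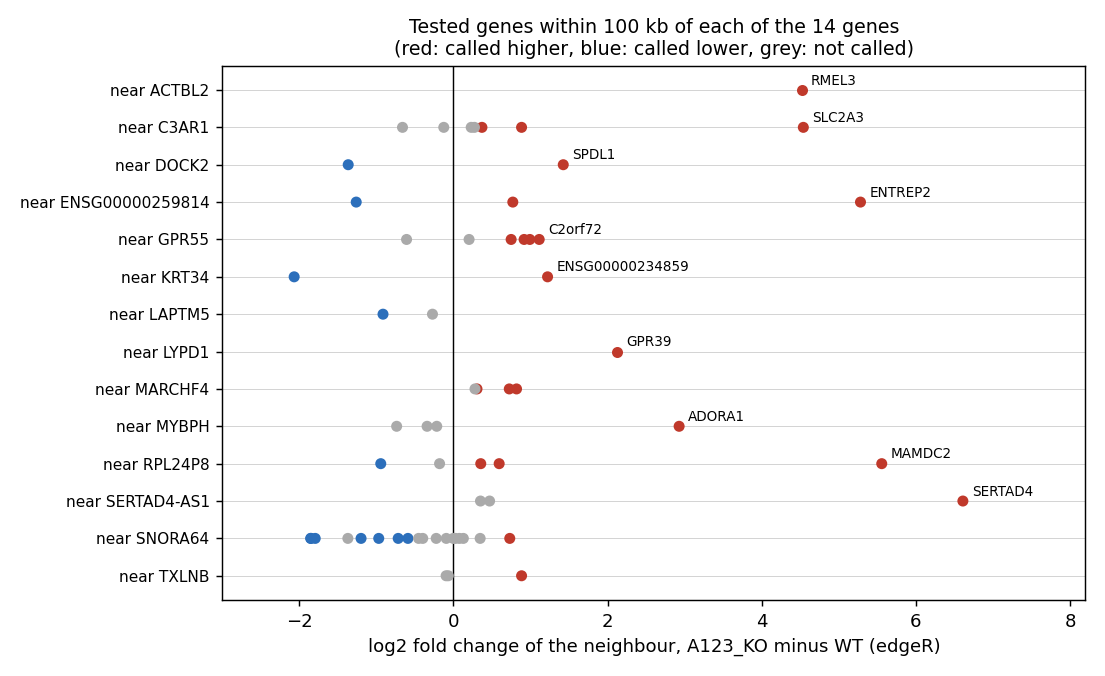
Log2 fold change in A123_KO against wild-type cells (x axis, edgeR) of the tested genes within 100 kb of each of the 14 genes (y axis), with a point per neighbour, coloured by whether it was called higher, lower or neither. The largest increases are those of SERTAD4 (6.61), MAMDC2 (5.56), ENTREP2 (5.28), SLC2A3 (4.54) and RMEL3 (4.52), and the neighbours of SNORA64 lie mostly at or below 0.

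The promoters of 11 of the 14 genes were found in RefSeq (GRCh38.p14), as the 250 bases before and 50 bases after the start. A CpG dinucleotide is the usual site of DNA methylation in vertebrates, and promoters that are dense in CpG tend to be active in many tissues, while those poor in CpG tend to be tissue-restricted. The 11 promoters held 0 to 17 CpG, with a median of 5, beside a median of 14 for the 35116 promoters of the table. Of the 11, 10 were below that median, and *DOCK2* with 17 was above it. Their GC content ranged from 43.7% to 69.7%, with a median of 55.0% beside 58.7%. The promoters of the other genes at the wild-type limit were not counted apart. A low number of CpG is therefore not shown to set these genes apart from other genes silent in wild-type cells. These values describe the reference sequence, since neither methylation nor chromatin was measured.

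**Figure D4:**
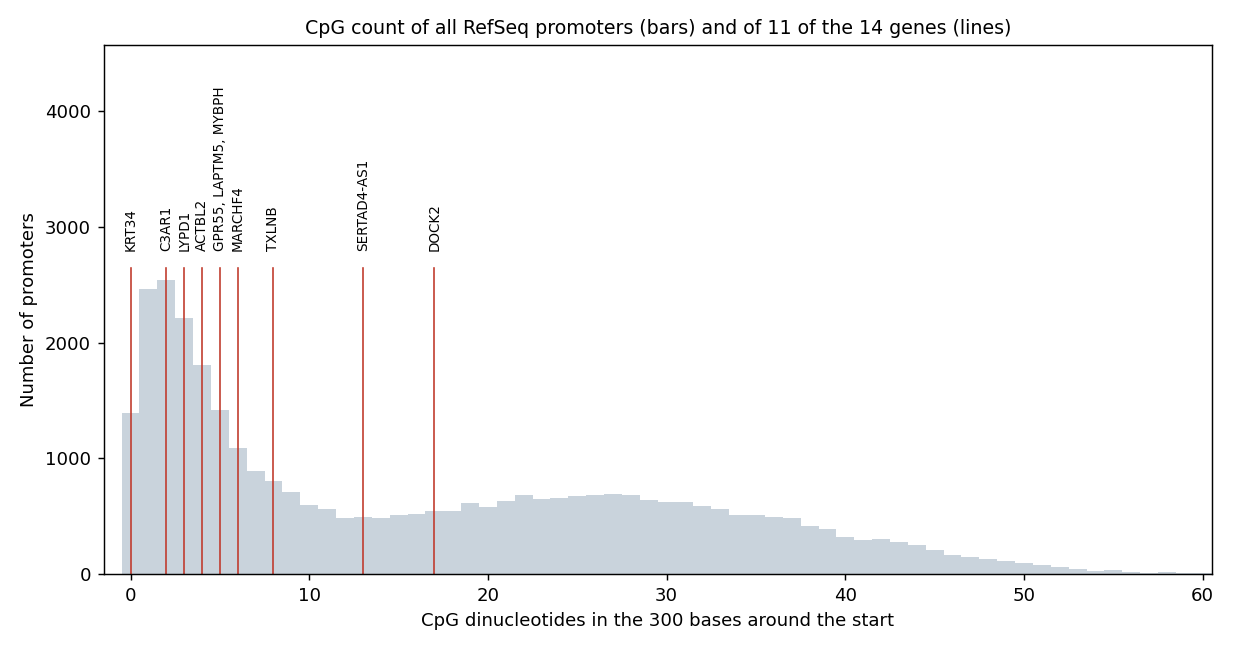
Number of RefSeq promoters (y axis, grey bars) by the number of CpG dinucleotides in the 300 bases around the start (x axis), with a red line at the value of each of the 11 genes that were matched. The lines run from 0 for KRT34 to 17 for DOCK2, most of them within the left-hand peak of the bars.

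A TATA box, the letters TATAA placed just before the start, marks many strongly regulated, tissue-restricted genes. It was searched on the gene's strand from 36 to 20 bases before the start and was found in 2 of the 11 promoters, *MYBPH* and *KRT34*, beside 3.66% of the promoters of the table. The windows of these 2 genes are shown with TATAA in capitals, beside those of *TXLNB*, which was raised in the same lines as *MYBPH*, and *GPR55*. They lie on the minus strand of GRCh38.p14 at chr1:203175833-203175862 (*MYBPH*), chr17:41382313-41382342 (*KRT34*), chr6:139292005-139292034 (*TXLNB*) and chr2:230925249-230925278 (*GPR55*, whose RefSeq start lies inside the GENCODE gene), and are given 5′ to 3′.
MYBPH: cctgactaTATAAgcctggacctaggtgtc
KRT34: aatggTATAAaaggactgcagaggaaggag
TXLNB: ctcccttgtaagaacacagccagcccgccc
GPR55: gaagtcgagacccagagaggggaagtgact
The first T of TATAA lies 28 bases before the start of *MYBPH* and 31 before that of *KRT34*. Within the whole 300 bases and on both strands, the E-box CAGCTG, which muscle regulatory factors can bind, occurred in 2 of the 11 promoters (*MYBPH* and *LAPTM5*) and in 17.9% of the promoters of the table. The GC box GGGCGG occurred in 5 of the 11 (45.0% of the table) and CCAAT in 3 of the 11 (34.6%). For these motifs and for TATAA, the share among other genes silent in wild-type cells was not counted. Such matches describe letters in a window and not binding.

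The 3′-UTRs of the 10 coding genes were searched for the complement of the seeds of 6 miRNAs that the study assayed by qPCR in HCT116 cells. The mature sequences are those of RefSeq, with the seed, bases 2 to 8, in capitals. Let-7a-5p and let-7f-5p share a seed, and the other 4 differ.
let-7a-5p: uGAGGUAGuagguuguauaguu
let-7f-5p: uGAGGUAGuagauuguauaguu
miR-21-5p: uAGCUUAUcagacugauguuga
miR-27a-3p: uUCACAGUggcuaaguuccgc
miR-29a-3p: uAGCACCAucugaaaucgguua
miR-125b-5p: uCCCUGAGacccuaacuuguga
A match was present in 3 of the 10 genes, with 1 match each. *C3AR1* held the let-7 match at base 1169 of its 3′-UTR of 1893 bases, *GPR55* a miR-29a-3p match at base 816 of 2675, and *MARCHF4* a miR-125b-5p match at base 585 of 1447. The matches are shown in the transcript's sense with the 7 bases in capitals.
C3AR1: atatgaggtctcCTACCTCactgtgccc
GPR55: agcacggagtgtTGGTGCTggcccaggg
MARCHF4: cagggagggatgCTCAGGGagggatatg
Among all 19524 coding 3′-UTRs searched, 9.77% held the let-7, 14.05% the miR-29a-3p and 14.7% the miR-125b-5p match. Among 3′-UTRs within 20% of the same length, the shares were 11.8%, 21.99% and 14.6%. The matches of miR-21-5p and miR-27a-3p, found in none of the 10 genes, occurred in 8.59% and 15.7% of all 3′-UTRs searched. The share of 3′-UTRs with a match to any of the 6 miRNAs was not counted, so that nothing is read from 3 of 10. The 3′-UTRs of *MYBPH* (313 bases), *TXLNB* (2465), *LYPD1* (2759), *DOCK2* (524), *KRT34* (390), *LAPTM5* (1359) and *ACTBL2* (1559) held none of these matches. For *MYBPH*, the most abundant of the coding genes per kilobase, none of the 6 seeds thus had a match in the annotated 3′-UTR; other miRNAs were not searched.

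Other genes of the same families and tissues were counted from fixed lists, leaving out the 14 genes. Of the 4 other genes of the myosin binding protein family, 0 were expressed enough to be tested, and 3 were at the wild-type limit. Of the other muscle contractile genes, 15 of 45 were tested, of which 2 were higher in A123_KO than in wild-type cells (*DES*, 1.35 on the log2 scale, and *NEB*, 0.52) and 10 lower, among them *TTN* (-3.27), the giant spring protein of the sarcomere, and *TNNT2* (-2.50), cardiac troponin T. Over the genes tested, 20.3% were higher and 19.8% lower in this comparison. In A12_KO, where *MYBPH* was at a similar level, 4 of the 15 were higher and 1 lower than in A1_KO, and 2 were higher and 1 lower than in A2_KO. Over the genes tested, 11.5% were higher and 7.95% lower than in A1_KO, and 12.8% and 11.1% than in A2_KO. Of the other receptors for lysophospholipids and cannabinoids, 13 of 21 were tested, and 1 was higher (*S1PR2*, 0.40) and 2 lower (*GPR35*, -1.53, and *LPAR3*, -0.87), beside *GPR55*.

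Markers of blood cells were counted beside *LAPTM5*, *DOCK2* and *C3AR1*, which the list does not hold. Of 40 genes 18 were at the wild-type limit and 17 were tested, of which 2 were higher in A123_KO than in wild-type cells and 4 lower (20.3% and 19.8% over the genes tested). In A12_KO, 7 were called against A1_KO and 6 against A2_KO, each of them higher, where 11.5% and 12.8% of all genes tested were higher. The genes higher in A123_KO were *PRF1* (3.07 on the log2 scale, from 7.11 to 59.8 CPM), which encodes perforin, and *LYZ* (5.87, from 0.125 to 7.51 CPM), which encodes lysozyme. The leukocyte gene *PTPRC* (CD45) had 0.966 CPM in wild-type and 0.979 CPM in A123_KO cells, and *CD3D*, *CD8B*, *MS4A1*, *FCGR3A* and *TYROBP* had 0 counts in every sample. The summed level of the list was 40.1 to 47.8 CPM in wild-type, 66.7 to 108.8 CPM in A12_KO and 94.0 to 104.8 CPM in A123_KO samples. *PRF1* made up most of the rise of this sum, with means of 7.11, 38.4 and 59.8 CPM in these lines.

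Of the remaining lists, 3 of 28 neuronal genes tested were higher in A123_KO than in wild-type cells and 8 lower, 1 of 16 germline and cancer-testis genes was higher and 2 lower, and 7 of 20 mesenchymal and matrix genes were higher and 1 lower, among them *VIM* (3.64) and *SPARC* (4.94). Of the endothelial genes tested, 1 of 9 was higher and 1 lower, of the liver genes 1 of 5 and 1, and of the epidermal genes 0 of 3 and 2. Of 12 let-7 regulated oncofetal genes, 6 were higher, *HMGA2* by 1.87, and 1 lower. Of 13 epithelial genes tested, 1 was higher (*KRT8*, 0.41) and 7 lower, among them *GRHL2* (-4.82), *CDH1* (-3.51) and *EPCAM* (-1.74). These counts stand beside 20.3% higher and 19.8% lower over all genes tested in A123_KO against wild-type cells. The part of these changes in the level of the 14 genes was not tested.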

How the data were processed

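Libraries were stranded and made from total RNA after depletion of ribosomal RNA. The authors filtered reads for quality, used STAR with hg38 and then Salmon, and deposited a file of expected counts per gene, as Salmon estimates them, for every sample, which are not normalized. Versions named in the submitters' processing notes are STAR 2.5.3a and Salmon 0.11.0, and the paper's methods name others. The column headers of the A2_KO files name another quantification mode than the rest, and the mode and that genotype cannot be told apart. Estimated counts were rounded to whole numbers. The 14 genes, the gene lists and the tests were chosen with earlier results of these data known.

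All 15 RNA-seq samples entered a single fit, 1 mean per line (5 lines), in edgeR 4.0.16 in R 4.3.3 (TMM normalization, filterByExpr, quasi-likelihood test, Benjamini-Hochberg adjustment over 22842 genes, adjusted p at or under 0.05). DESeq2 1.42.0, other normalizations, filters and sample sets, the replicate number as a block and leaving out each sample were tried as alternatives. The fit was checked on simulated data. With 3 samples per line the smallest p of an exact two-sided permutation test is 0.1, so that no test of single values is given. The paper calls the replicates biological without saying how the cultures were separated, and the p-values measure the spread between them. Of 105 pairs of samples compared, 0 held identical values. The replicate numbers did not pair the samples.

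Named genes were the 14, the genes of the lists, *AGO1* to *AGO3*, and the 3 genes nearest to each side of the rule. Positions, transcripts and 3′-UTRs are those of GENCODE v44 on GRCh38, which holds 57167 of the 57875 genes. Promoters and miRNAs come from RefSeq. Shared sequence is the share of a transcript's words of 31 bases that occur in transcripts of other genes. Ratios used summed counts and effective library sizes, in Python 3.11.15 with scipy 1.17.1, pandas 2.3.3 and numpy 2.4.6. The 8 eCLIP samples were not analysed here.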

Additional observations from a re-analysis of the deposited data

How the results depend on the processing

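The size of the gene set followed its limits. It held 6 genes with 1 or fewer counts in each wild-type sample, 21 with 5 or fewer, 34 with 10 or more counts in each A123_KO sample and 3 with 50 or more, and 14 to 18 when a sample was left out. In A12_KO, 8 of the 14 genes had more than 3 counts in each sample, where 3 had 20 or more. The number called in A12_KO against A1_KO, 6 genes, was 2 in fits of the 6 samples compared and of the 9 samples of the single and double knockouts, in each of which 3 of the 14 genes passed the filter, and it ranged from 3 to 7 when a sample was left out. Against A2_KO, 7 genes were called, 3 in the fit of 9 samples, where 3 passed the filter, 5 in the fit of the 6 samples compared, where 5 passed it, and 7 whichever sample was left out. No direction reversed under the alternatives run.

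The replicate numbers were tested as a block although same-numbered samples did not deviate together (mean r = -0.01 over 30 pairs, from -0.22 to 0.29). With the replicate block, 6, 7 and 1 genes were called, as without it, and it changed no call of a named gene.

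Depth limits the rule. Samples had 27709971 to 45271146 counts, so that RNA below about 3 counts was not detectable and the limit of 20 counts stands for another level in samples of other depth. With counts scaled to a common depth, 10 genes met the rule.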
